A study of Mus musculus with 19 samples.

Results

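The homeostatic maturation effectors of dendritic cells described here are 36 genes listed as effectors of the maturation of these cells without infection. They were taken by symbol from a list drawn up with earlier results of these data known, and all 36 of 36 were found among the 24421 gene symbols of the count tables. The list was grouped by the known role of each product into 8 groups: cytoskeleton and migration (4 genes), cytokines and their signalling (6), immune regulation at the membrane and adaptors (5), junction and anchoring proteins (2), channels and transporters (4), proteases and their inhibitors (4), metabolism and vesicle traffic (6), and lipid-binding and other proteins (5).

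A conventional dendritic cell in the spleen matures spontaneously at a low rate: it loses the programme of antigen uptake, raises the chemokine receptor CCR7 and actin-remodelling proteins such as fascin, and travels to the T cell zone, where it presents self antigen without inflammatory help. The cDC1 subset is known for taking up dying cells and showing their antigens to CD8 T cells, while cDC2 are known for the priming of CD4 T cells. IRE1, encoded by Ern1, is a sensor in the membrane of the endoplasmic reticulum whose RNase activity, by splicing Xbp1 transcripts, yields the transcription factor XBP1s, and it can also cut other RNAs.

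Bulk RNA was sequenced from cDC1 and cDC2 sorted from the spleens of C57BL6 mice of 3 genotypes: WT, Xbp1 KO, and Xbp1-Ire1 KO, with both genes knocked out. The cells were sorted by flow cytometry. No treatment, age, sex or Cre driver is given in the sources used here. Of the WT libraries, 2 of 3 in cDC1 (replicates 1 and 2) and 2 of 4 in cDC2 (replicates 1 and 2) carry names with floxed (fl-fl) alleles of both genes, and the others carry names with WT. The other 4 groups hold 3 libraries each, which gives 19 libraries with 10606864 to 16209469 counts each. The labels do not say that replicates are separate mice, so a p-value here measures only how far these samples spread, and that spread may be technical.

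The sort labels were matched by the marker transcripts: Xcr1, the chemokine receptor that marks cDC1, ranged from 813 to 1281 CPM (counts scaled by the size of the library) in cDC1 and reached only 5.66 to 19.5 CPM in cDC2. Counts of Xbp1 and Ern1 over the whole gene do not check a deletion of some exons. Xbp1 was at 174 ± 51.7 CPM (mean ± SD) in cDC1 WT, 99.2 ± 12.1 in cDC1 Xbp1 KO and 330.3 ± 26.3 in cDC1 Xbp1-Ire1 KO, and Ern1 at 24.9 ± 3.54, 30.6 ± 3.36 and 60.8 ± 10.4 CPM. Transcripts of other cells stood out in single libraries. In replicate 3 of cDC1 Xbp1 KO, transcripts of pancreatic acinar cells made up 2048 CPM, and no other library held more than 9.62 CPM of them. The 8 transcripts of red pulp macrophages summed to 898 CPM in cDC1 Xbp1 KO replicate 2 and 733 in cDC1 Xbp1-Ire1 KO replicate 2, against 171 to 421 CPM in the other cDC1 libraries, and to 1683 CPM in cDC2 Xbp1 KO replicate 1, against 176 to 891 in the other cDC2 libraries. Neutrophil transcripts were at 80.0 CPM in cDC1 Xbp1-Ire1 KO replicate 2 and at most 23.3 CPM in the other cDC1 libraries.

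Most of the maturation genes were lower in cDC1 of the double knockout, and a smaller number in cDC1 of Xbp1 KO. In Xbp1-Ire1 KO against WT, 26 of 36 members fell and 0 rose, with 36 of 36 fold changes below 0 and a median log2 fold change of −1.95. Over all 11353 genes tested, 4.71% fell, 3.04% rose and the median was 0.00815. In Xbp1 KO against WT, 16 of 36 members fell and 1, Cldn1, rose, with a median of −0.821. The background there was 6.91% lower and 4.28% higher, with a median of −0.0211. In Xbp1-Ire1 KO against Xbp1 KO, 19 of 36 members fell and 0 rose, with a median of −0.960, against 5.52% lower and 7.13% higher over all genes and a median of 0.0160. The 3 comparisons share libraries, so their values are given side by side and not as independent evidence. The group means ran from WT over Xbp1 KO down to Xbp1-Ire1 KO for 24 members, and for 9 others Xbp1 KO stood above WT with Xbp1-Ire1 KO lowest. All of these tests are edgeR quasi-likelihood F tests, with p-values adjusted by the method of Benjamini and Hochberg over all genes and a gene called at an adjusted p under 0.05. All 36 members passed the filter on low counts in cDC1. In bulk RNA, fewer mature cells in a sort and less RNA of these genes per cell cannot be told apart.

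**Figure D1:**
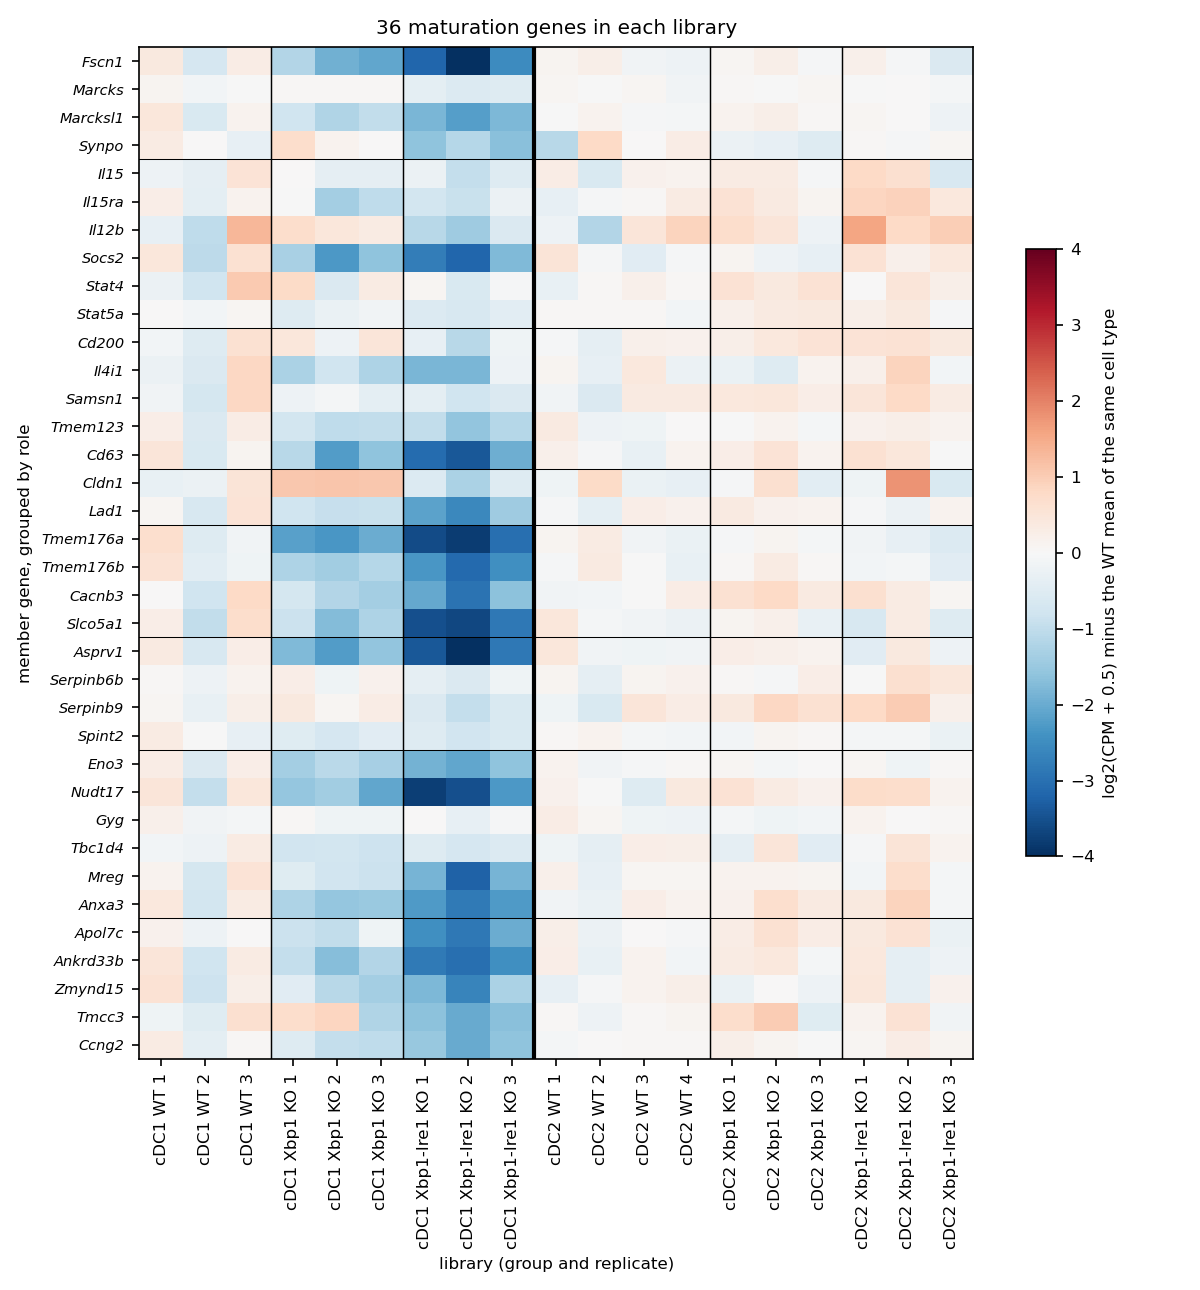
Each row is 1 of the 36 members, grouped by role, and each column 1 library; the colour is log2(CPM + 0.5) minus the WT mean of the same cell type, from −4 (blue) to 4 (red). The cDC1 Xbp1-Ire1 KO columns are blue for most rows, the cDC1 Xbp1 KO columns are paler, and the cDC2 columns are mostly near white.

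Members that shape the actin cytoskeleton fell in the double knockout, fascin most. Fscn1 bundles actin filaments and is a defining protein of the migrating mature dendritic cell; its gene lies at chr5:142960343-142973185, plus strand, on mm10 (GENCODE M21). In the cDC1 WT libraries Fscn1 stood at 424, 204 and 397 CPM, in Xbp1 KO at 143, 84.6 and 76.9 CPM and in Xbp1-Ire1 KO at 35.8, 19.2 and 56.9 CPM. Each group lay wholly below the one before it. The log2 fold change of Fscn1 in Xbp1-Ire1 KO against WT was −3.20 ± 0.38 (SE), adjusted p = 0.000198, a 9.16-fold lower level. Marcksl1, a membrane-bound regulator of actin, showed the same order with 398, 191 and 318 CPM in WT, 166, 126 and 147 in Xbp1 KO and 81.9, 61.9 and 83.1 in Xbp1-Ire1 KO, and its log2 fold change in the double knockout was −1.999 ± 0.23, adjusted p = 0.000135.

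Its relative Marcks, a major substrate of protein kinase C that binds actin and membrane phospholipid, behaved differently from Marcksl1 in Xbp1 KO. Marcks stood at 1431, 1239 and 1319 CPM in cDC1 WT, 1381, 1369 and 1372 in Xbp1 KO and 1006, 917 and 928 in Xbp1-Ire1 KO, so that the Xbp1 KO libraries lay within the WT range and the Xbp1-Ire1 KO libraries below both. Against WT its log2 fold change was 0.0473 ± 0.11, adjusted p = 0.812, in Xbp1 KO and −0.48 ± 0.11, adjusted p = 0.0135, in Xbp1-Ire1 KO. The latter call was lost without cDC1 WT replicate 1 (adjusted p = 0.0564) and without cDC1 Xbp1-Ire1 KO replicate 3 (adjusted p = 0.0671). Synpo, which encodes the actin-associated protein synaptopodin, was at 24.1, 19.4 and 15.2 CPM in WT, 31.9, 21.1 and 19.3 in Xbp1 KO and 5.93, 8.49 and 5.63 in Xbp1-Ire1 KO. The Xbp1 KO values of Synpo overlapped those of WT, and all Xbp1-Ire1 KO values lay below both groups (log2 fold change against WT −1.54 ± 0.26, adjusted p = 0.00288).

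Of the 6 genes of cytokines and their signalling, Socs2 and Stat5a fell in the double knockout, and Socs2 alone fell in Xbp1 KO. Il15 encodes a cytokine that dendritic cells present to NK cells and CD8 T cells on the receptor chain encoded by Il15ra. Il15 lay at 16.3, 14.4 and 27.8 CPM in cDC1 WT, 18.997, 14.5 and 14.4 in Xbp1 KO and 15.8, 9.49 and 12.9 in Xbp1-Ire1 KO. Il15ra lay at 15.9, 9.98 and 14.6 CPM in WT, 13.1, 4.91 and 6.36 in Xbp1 KO and 7.70, 6.91 and 11.3 in Xbp1-Ire1 KO. Neither gene passed the test in either knockout against WT in the reported fit, with adjusted p of 0.194 to 0.524, and the groups overlapped for both. With the WT-named library as the sole WT, the log2 fold change of Il15 in Xbp1-Ire1 KO was −1.13.

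Il12b encodes the p40 chain shared by the T cell-polarising cytokines interleukin 12 and interleukin 23. Its WT libraries spread widely, at 72.1, 45.4 and 232 CPM, with the fl-fl libraries low and the WT-named library high. Xbp1 KO stood at 150.02, 125 and 115 CPM and Xbp1-Ire1 KO at 41.8, 33.7 and 60.7 CPM, with all Xbp1-Ire1 KO libraries below all Xbp1 KO libraries. Between the knockouts the log2 fold change of Il12b was −1.52 ± 0.44 (SE), adjusted p = 0.0398. Against WT the double knockout gave −1.36 ± 0.44, adjusted p = 0.0780, which did not pass. Against the fl-fl WT libraries alone Il12b was called higher in Xbp1 KO (1.16, adjusted p = 0.00326). In Xbp1-Ire1 KO Il12b was called lower than WT without WT replicate 2 (−1.75, adjusted p = 0.0112) and with no filter (−1.36, adjusted p = 0.00513). With the WT-named library as the sole WT its log2 fold change there was −2.35. The call between the knockouts was lost on leaving out any 1 of their 6 libraries, at adjusted p of 0.132, 0.102 and 0.0550 without Xbp1 KO replicates 1 to 3 and 0.139, 0.119 and 0.0559 without those of Xbp1-Ire1 KO.

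Socs2 encodes a feedback inhibitor of JAK and STAT signalling. It stood at 48.3, 16.6 and 53.4 CPM in cDC1 WT, 13.9, 6.75 and 11.1 in Xbp1 KO and 4.69, 3.46 and 9.90 in Xbp1-Ire1 KO. Both knockouts lay below WT and overlapped each other, and the log2 fold change in Xbp1-Ire1 KO was −2.71 ± 0.46 (SE), adjusted p = 0.00257. Stat5a, which transmits signals of growth factor and interleukin receptors, showed a small change, from 52.4, 47.3 and 54.6 CPM in WT to 35.1, 33.1 and 38.6 CPM in Xbp1-Ire1 KO. Its call (−0.53 ± 0.15, adjusted p = 0.0418) was lost on leaving out any of 5 libraries, WT replicate 1 or 2 or any of the 3 Xbp1-Ire1 KO replicates, with adjusted p of 0.116, 0.0581, 0.127, 0.104 and 0.0783. Stat4, which transmits interleukin 12 signals, was at 0.983 to 4.79 CPM over the cDC1 libraries and was called in neither knockout.

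Among membrane and adaptor proteins of immune regulation, Cd63 and Tmem123 fell against WT, and Cd200, Samsn1 and Il4i1 were not called by edgeR. CD63 is a tetraspanin of late endosomes and extracellular vesicles. Cd63 stood at 104, 48.2 and 79.1 CPM in cDC1 WT, 34.1, 15.1 and 23.9 in Xbp1 KO and 8.23, 6.50 and 18.6 in Xbp1-Ire1 KO. Both knockouts lay below WT, and the log2 fold change in the double knockout was −2.79 ± 0.40 (SE), adjusted p = 0.000776. Tmem123, a mucin-like surface protein, went from 1312, 730.1 and 1320.3 CPM in WT to 541, 359 and 493 in Xbp1-Ire1 KO (−1.27 ± 0.21, adjusted p = 0.00244), without overlap.

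Cd200, whose product engages an inhibitory receptor on myeloid cells, was at 31.6, 23.97 and 52.8 CPM in WT, 47.5, 29.4 and 47.8 in Xbp1 KO and 27.1, 15.8 and 30.2 in Xbp1-Ire1 KO, with overlapping groups. Between the knockouts Cd200 did not pass by edgeR (−0.78 ± 0.30, adjusted p = 0.108) and was called lower in the double knockout by DESeq2 (−0.79, adjusted p = 0.0492). The adaptor gene Samsn1 ranged over 49.8 to 144 CPM in WT and 46.6 to 61.8 CPM in Xbp1-Ire1 KO, also with overlap (−0.72 ± 0.29, adjusted p = 0.147). Samsn1 was called lower in the double knockout with the WT-named library as the sole WT (−1.41, adjusted p = 0.000576), without WT replicate 2 (−1.02, adjusted p = 0.0229) and with no filter (−0.72, adjusted p = 0.0467). Il4i1, a secreted amino acid oxidase that restrains T cells, was near the detection limit in cDC1, at 0.997, 0.681 and 2.67 CPM in WT, 0.245, 0.526 and 0.248 in Xbp1 KO and 0, 0 and 1.04 in Xbp1-Ire1 KO. The Xbp1 KO libraries, with 3 to 6 counts each, lay below WT, and the double knockout overlapped WT. Its log2 fold changes, −2.07 in Xbp1 KO and −2.002 in Xbp1-Ire1 KO, had standard errors of 1.19 and 1.16, and neither passed at this depth.

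Of the 2 genes of junction and anchoring proteins, Cldn1 rose in Xbp1 KO and Lad1 fell in the double knockout. Cldn1 encodes claudin-1, a tight junction protein that dendritic cells use where they reach between epithelial cells. It stood at 15.4, 16.1 and 27.4 CPM in cDC1 WT, rose to 40.6, 41.6 and 40.8 in Xbp1 KO and lay at 12.8, 7.61 and 13.1 in Xbp1-Ire1 KO. The Xbp1 KO libraries were tightly grouped above all WT libraries, and the Xbp1-Ire1 KO libraries lay below all of WT. Between the knockouts the log2 fold change of Cldn1 was −1.88 ± 0.26 (SE), adjusted p = 0.000358, while Xbp1-Ire1 KO against WT gave −0.82 ± 0.25, adjusted p = 0.0661, which did not pass by edgeR and was called lower by DESeq2 (−0.81, adjusted p = 0.0288). Lad1, an anchoring filament protein of basement membranes, fell from 60.4, 36.6 and 82.9 CPM in WT to 12.4, 9.08 and 20.9 CPM in Xbp1-Ire1 KO (−2.08 ± 0.31, adjusted p = 0.000975), and its Xbp1 KO values of 32.3, 29.8 and 30.2 CPM lay between these groups without overlap. In Xbp1 KO Lad1 did not pass by edgeR (−0.96 ± 0.30, adjusted p = 0.0522) and was called lower by DESeq2 (−0.94, adjusted p = 0.0151).

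All 4 channel and transporter genes fell in cDC1 Xbp1-Ire1 KO. Tmem176a and Tmem176b are neighbouring genes (chr6:48840919-48847071, plus strand, and chr6:48833818-48841496, minus strand, mm10) of related membrane proteins, the second of them a known cation channel of immature dendritic cells. Tmem176a stood at 91.8, 40 and 52.4 CPM in WT, 12.3, 11.2 and 14.4 in Xbp1 KO and 4.42, 3.69 and 6.66 in Xbp1-Ire1 KO, and Tmem176b at 86.04, 42.8 and 50.9 CPM in WT, 24.1, 21.6 and 25.9 in Xbp1 KO and 10.9, 6.21 and 10.03 in Xbp1-Ire1 KO. For both genes the 3 groups were separate and in the same order. The log2 fold changes in the double knockout were −3.64 ± 0.32, adjusted p = 1.35e-05, for Tmem176a, 12.4-fold lower, and −2.74 ± 0.27, adjusted p = 4.84e-05, for Tmem176b. Their transcripts overlap on opposite strands by up to 62 bases of exon, and the strand setting of the counting is not given in the sources used here.

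Slco5a1, of the organic anion transporter family, had the most negative fold change of the 36 members, with those of Tmem176a and Asprv1 within its SE. It lay at 18.7, 7.56 and 25.1 CPM in WT, 8.15, 4.29 and 6.27 in Xbp1 KO and 0.885, 0.761 and 1.68 in Xbp1-Ire1 KO (−3.93 ± 0.48 (SE), adjusted p = 0.000262). The double knockout lay below both other groups, which touched each other. Cacnb3 encodes the beta subunit of voltage-gated calcium channels and was at 60.9, 34.4 and 106 CPM in WT, 37.2, 26.7 and 23.1 in Xbp1 KO and 14.4, 7.38 and 18.96 in Xbp1-Ire1 KO. Its Xbp1-Ire1 KO libraries again lay below all others (−2.31 ± 0.39, adjusted p = 0.00253).

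Of the 4 protease and inhibitor genes, Asprv1 fell in both knockouts, while Serpinb9 and Serpinb6b were not called in Xbp1 KO. Asprv1, a retroviral-like aspartic protease known from skin, stood at 66.2, 32.4 and 61.5 CPM in cDC1 WT, 14.6, 10.5 and 16.6 in Xbp1 KO and 4.42, 1.99 and 6.60 in Xbp1-Ire1 KO. The groups were separate, and the double knockout was 12.3-fold lower (−3.63 ± 0.38 (SE), adjusted p = 7.23e-05). Serpinb9 encodes an inhibitor of granzyme B that shields antigen-presenting cells from killer cells. It stood at 461, 356 and 522 CPM in WT, 573, 469 and 536 in Xbp1 KO and 293, 227 and 288 in Xbp1-Ire1 KO.

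The Xbp1 KO values of Serpinb9 overlapped WT (0.24 ± 0.16, adjusted p = 0.344), and its Xbp1-Ire1 KO values lay below both (−0.73 ± 0.16, adjusted p = 0.0116, against WT and −0.97 ± 0.16, adjusted p = 0.00155, against Xbp1 KO). Serpinb6b, another intracellular serpin, was at 181, 153 and 193 CPM in WT, 210.3, 156 and 198 in Xbp1 KO and 137, 117 and 156 in Xbp1-Ire1 KO. It was called in no cDC1 comparison in the reported edgeR fit, while DESeq2 called it lower in the double knockout than in Xbp1 KO (−0.47, adjusted p = 0.0235). Serpinb6b was also called lower there by edgeR with no filter, with a replicate block and on the compared groups alone (adjusted p = 0.0381, 0.0270 and 0.0326). Spint2, an inhibitor of membrane-bound serine proteases, was at 274, 213 and 173 CPM in WT and 152, 127 and 141 CPM in Xbp1-Ire1 KO (−0.65 ± 0.16, adjusted p = 0.0230), a call lost on leaving out WT replicate 1 (adjusted p = 0.107) or any Xbp1-Ire1 KO replicate (adjusted p = 0.0594, 0.0721 and 0.0783). Serpinb6b and Serpinb9 belong to a cluster of similar genes, and how reads shared between copies were counted is not given in the sources used here.

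Of the 6 genes of metabolism and vesicle traffic, 5 fell in the double knockout and Gyg, the glycogenin that primes glycogen synthesis, did not pass the test. Gyg lay at 71.2, 56.2 and 57.8 CPM in cDC1 WT, 63.5, 53.97 and 54.2 in Xbp1 KO and 62.04, 49.2 and 59.98 in Xbp1-Ire1 KO, with a log2 fold change of −0.11 ± 0.15 (SE), adjusted p = 0.708, in the last. Eno3, the muscle form of the glycolytic enzyme enolase, stood at 64.4, 35.1 and 62.4 CPM in WT, 20.1, 24.3 and 20.6 in Xbp1 KO and 13.5, 11.9 and 16.8 in Xbp1-Ire1 KO. Its groups were separate, and the double knockout was 3.84-fold lower than WT (−1.94 ± 0.23, adjusted p = 0.000198). Nudt17, a Nudix hydrolase, was at 29.2, 10.4 and 28.5 CPM in WT and 1.06, 1.35 and 3.82 CPM in Xbp1-Ire1 KO (−3.43 ± 0.49, adjusted p = 0.000830).

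Anxa3, a calcium-dependent phospholipid-binding protein, went from 33.6, 14.7 and 31.9 CPM in WT through 10.3, 8.24 and 8.58 in Xbp1 KO to 4.87, 3.10 and 4.85 in Xbp1-Ire1 KO (−2.65 ± 0.32, adjusted p = 0.000224), with separate groups. Mreg, a protein of organelle transport, stood at 127, 71.5 and 171 CPM in WT, 83.4, 67.9 and 63.6 in Xbp1 KO and 31.6, 11.9 and 31.6 in Xbp1-Ire1 KO. Only its double knockout lay apart from the other cDC1 groups (−2.31 ± 0.35, adjusted p = 0.00113). Tbc1d4, a Rab regulator of glucose transporter traffic, was the one member of this group with a lower mean in Xbp1 KO than in Xbp1-Ire1 KO. It was at 429.6, 403 and 589 CPM in WT, 274, 279 and 265 in Xbp1 KO and 325, 290.2 and 322 in Xbp1-Ire1 KO, and the difference between the knockouts did not pass (0.20 ± 0.14, adjusted p = 0.395). Its call in Xbp1-Ire1 KO against WT (−0.60 ± 0.14, adjusted p = 0.0195) was lost without any of the 3 Xbp1-Ire1 KO replicates, at adjusted p of 0.0620, 0.0612 and 0.0642.

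Apol7c (chr15:77524852-77533316, minus strand, mm10), a gene of the apolipoprotein L family, had the highest cDC1 WT level of the 36 members per length of transcript, at 456.5 ± 61.3 CPM per kilobase of exon (SD, n = 3). It stood at 1060.3, 808 and 952 CPM in WT, 512, 467 and 826 in Xbp1 KO and 170.2, 129.5 and 235 in Xbp1-Ire1 KO. The double knockout lay far below the other groups (−2.40 ± 0.24 (SE), adjusted p = 4.84e-05, against WT), and Xbp1 KO overlapped WT through its replicate 3, the library with acinar transcripts. The Xbp1 KO difference from WT did not pass (−0.64 ± 0.23, adjusted p = 0.0867) and passed when that library was left out (−0.93, adjusted p = 0.0229) and with DESeq2 (−0.62, adjusted p = 0.0332). The apolipoprotein L genes are a family of near copies on chromosome 15, so reads shared with other copies may be included or lost.

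The other 4 members of that group also fell in the double knockout. Ccng2, an unusual cyclin linked to cell cycle arrest, stood at 187, 111 and 154 CPM in WT, 103, 75.96 and 72.7 in Xbp1 KO and 51.5, 35.9 and 47.9 in Xbp1-Ire1 KO (−1.74 ± 0.21 (SE), adjusted p = 0.000198), with separate groups. Ankrd33b, an ankyrin repeat protein, was at 29.4, 11.7 and 26.2 CPM in WT, 10.4, 6.13 and 8.91 in Xbp1 KO and 2.48, 2.17 and 3.43 in Xbp1-Ire1 KO (−3.05 ± 0.37, adjusted p = 0.000210), again with separate groups. Tmcc3, a coiled-coil protein of the endoplasmic reticulum, was at 17.4, 13.8 and 30.6 CPM in WT and 5.93, 4.39 and 5.69 in Xbp1-Ire1 KO, while Xbp1 KO split into 31.9, 35.4 and 8.25 CPM, the last of them in the replicate with acinar transcripts.

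The Tmcc3 call in Xbp1-Ire1 KO against WT (−1.95 ± 0.45, adjusted p = 0.0173) was lost without Xbp1-Ire1 KO replicate 1, 2 or 3 (adjusted p = 0.0698, 0.0682 and 0.0600). Zmynd15, a zinc finger protein, was at 23.6, 8.54 and 18.5 CPM in WT and 4.16, 2.05 and 6.21 in Xbp1-Ire1 KO. Its call (−2.03 ± 0.44, adjusted p = 0.0131) was lost without WT replicate 1 (adjusted p = 0.0684) and without Xbp1-Ire1 KO replicate 1 (adjusted p = 0.0623). Zmynd15 shares up to 552 bases of exon with Cxcl16 on the opposite strand.

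**Figure D2:**
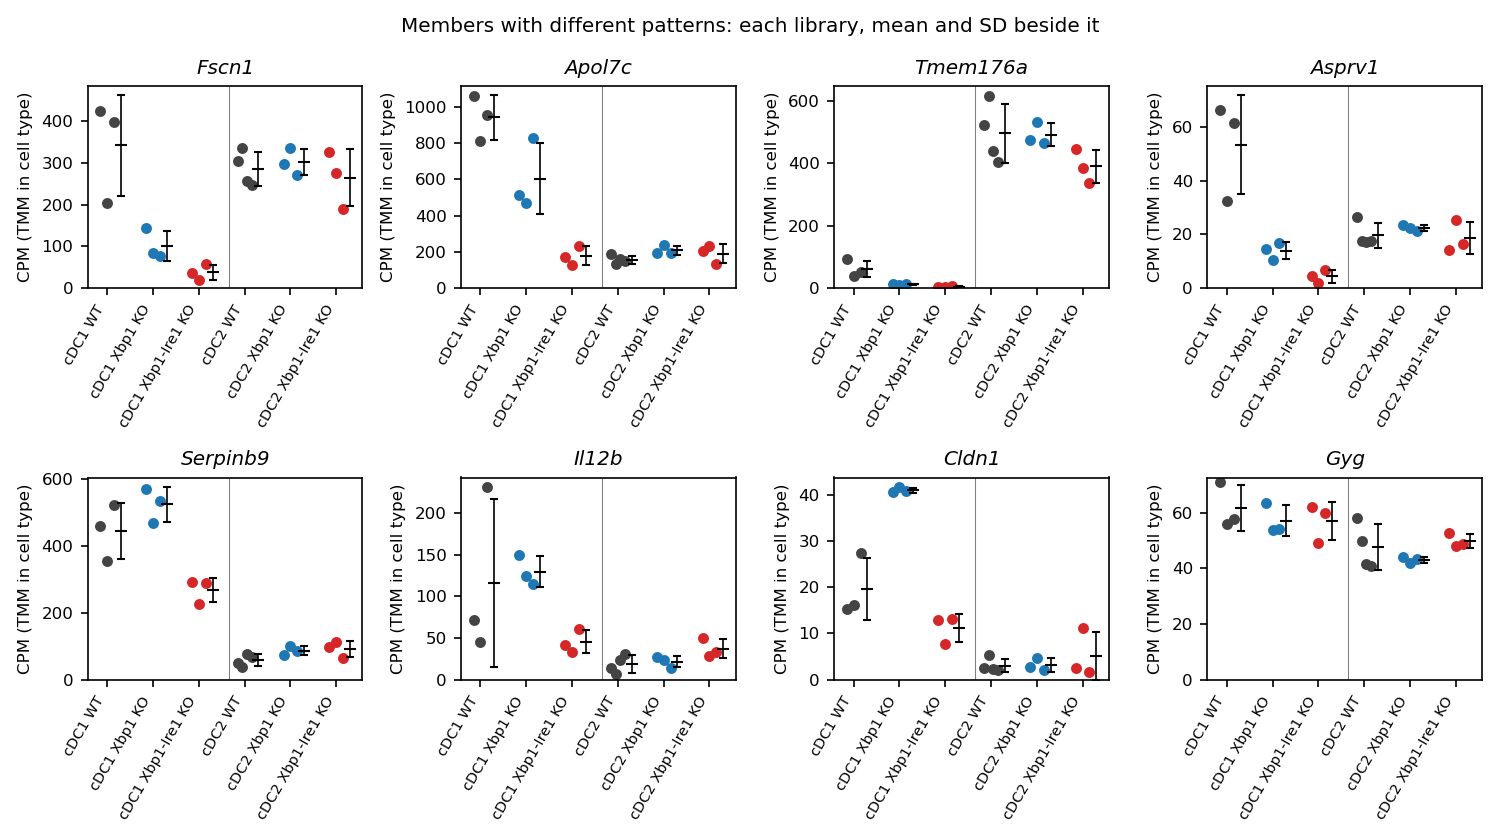
Each panel shows 1 member, with CPM scaled within a cell type on the y axis from 0, 1 point per library in the 6 groups, and the mean ± SD beside the points. Fscn1, Tmem176a and Asprv1 step down across the 3 cDC1 genotypes, Serpinb9, Il12b and Cldn1 are lower in cDC1 Xbp1-Ire1 KO than in cDC1 Xbp1 KO, and the cDC1 groups of Gyg overlap.

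The promoters of the 29 members found in the promoter table were searched for known motifs, and 4 are shown because their genes carry the patterns above. Fscn1 and Cd63 fell in both knockouts and Serpinb9 and Apol7c in the double knockout. The sequences are from RefSeq on GRCm38.p6, run 5′ to 3′ on the strand of the gene, cover the 250 bases before an annotated start without exonic bases, and have motif matches in capitals.
Fscn1, chr5:142960105-142960342, plus strand, no match: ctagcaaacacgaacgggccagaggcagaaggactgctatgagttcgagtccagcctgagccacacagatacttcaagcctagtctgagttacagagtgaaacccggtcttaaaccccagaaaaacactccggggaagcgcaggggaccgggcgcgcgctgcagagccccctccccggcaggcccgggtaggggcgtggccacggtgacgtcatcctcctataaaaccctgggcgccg
Cd63, chr10:128909095-128909344, plus strand, a UPRE match: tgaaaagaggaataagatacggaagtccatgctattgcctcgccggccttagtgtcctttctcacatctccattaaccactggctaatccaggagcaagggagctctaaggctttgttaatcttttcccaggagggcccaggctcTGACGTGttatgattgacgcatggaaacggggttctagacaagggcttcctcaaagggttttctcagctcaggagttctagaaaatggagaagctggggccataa
Serpinb9, chr13:33004291-33004540, plus strand, an IRF match: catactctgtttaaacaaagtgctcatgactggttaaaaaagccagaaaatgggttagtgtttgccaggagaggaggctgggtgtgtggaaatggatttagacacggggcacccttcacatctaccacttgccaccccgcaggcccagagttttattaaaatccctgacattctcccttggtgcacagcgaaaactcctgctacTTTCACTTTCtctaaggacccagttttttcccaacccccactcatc
Apol7c, chr15:77533317-77533565, minus strand, overlapping IRF matches: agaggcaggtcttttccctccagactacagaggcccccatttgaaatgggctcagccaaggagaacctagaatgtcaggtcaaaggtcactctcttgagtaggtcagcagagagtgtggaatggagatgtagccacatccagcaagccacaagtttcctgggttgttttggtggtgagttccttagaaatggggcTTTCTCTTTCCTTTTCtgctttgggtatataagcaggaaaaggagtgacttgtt

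For these 29 of the 36 members, 4 motifs were searched on both strands before each annotated start, and a gene counted if any start had a match. Genes with more starts thus had more windows, over all genes 32851 starts for 27025 genes. Stat4 and Stat5a matched only at start 2 of 2, Tmem176a at start 1 of 2, Tmem176b at start 2 of 3 and Tmcc3 at starts 3 and 4 of 6. The unfolded protein response element (UPRE, TGACGTG), bound by XBP1s, was in 1 of 29 members (3.45%), Cd63, against 1.85% of 27025 genes. The IRF motif (GAAANNGAAA) was in 3 (10.3%), Serpinb9, Apol7c and Stat4, against 3.46%. The kappaB motif of the NF-kappaB family was in 4 (13.8%), Stat5a, Tmem176a, Tmem176b and Tmcc3, against 4.46%. The match of Tmem176a and Tmem176b is the same 10 bases, GGAAAACCCC at chr6:48841397-48841406 on the plus strand, between divergent RefSeq starts of the 2 genes. By the GENCODE bounds given above it lies inside both genes, and it falls in an annotated exon of Tmem176b. A STAT site (GAS, TTCNNNGAA) was in 0 of 29, against 8.13%. Such matches describe the letters in these windows and are not shown to be bound.

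Of the 17 calls in cDC1 Xbp1 KO against WT, 5 held in every alternative run, as did 19 of the 26 calls in Xbp1-Ire1 KO against WT. In Xbp1 KO these were, with their log2 fold changes, Tmem176a (−2.28 ± 0.29, adjusted p = 0.000256), Eno3 (−1.32 ± 0.23, adjusted p = 0.00244), Tbc1d4 (−0.80 ± 0.14, adjusted p = 0.00314), Asprv1 (−1.94 ± 0.35, adjusted p = 0.00347) and Anxa3 (−1.56 ± 0.31, adjusted p = 0.00558). Tmem176b (−1.33 ± 0.26, adjusted p = 0.00544) held in each fit that left out 1 library. The calls of Fscn1 (−1.75), Marcksl1 (−1.04), Tmem123 (−0.95), Cd63 (−1.66), Socs2 (−1.90), Ccng2 (−0.84), Ankrd33b (−1.40), Nudt17 (−1.85), Spint2 (−0.55) and Slco5a1 (−1.45), and the rise of Cldn1 (1.06 ± 0.25, adjusted p = 0.0163), were each lost in at least 1 of them.

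Leaving out Xbp1 KO replicate 2 left 6 called members, and the 11 lost ones, all of those just named, had adjusted p of 0.0552 to 0.167. Leaving out WT replicate 1 left 7 and lost those except Fscn1, at adjusted p of 0.0588 to 0.204. Without WT replicate 2, the lowest WT library for 33 of the 36 members, 17 members were called and Cldn1 and Spint2 were lost, at adjusted p of 0.0673 and 0.0907. Without Xbp1 KO replicate 3, the library with acinar transcripts, 13 were called, and Ankrd33b, Ccng2, Nudt17, Slco5a1 and Spint2 were lost, at adjusted p of 0.0502 to 0.0943. Without Xbp1 KO replicate 1 also 13 were called, with Cldn1, Nudt17, Slco5a1 and Spint2 lost, and without WT replicate 3 Slco5a1 was lost, at an adjusted p of 0.0891.

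Set against Xbp1 KO instead of WT, the double knockout was lower for members of each role group except immune regulation at the membrane and adaptors, where 0 of 5 were called by edgeR. In that group DESeq2 called Cd200 lower, and edgeR with no filter, with a replicate block or on the compared groups alone called Cd200 and Cd63 lower, Cd63 at −1.15, adjusted p = 0.0452, in the last. The calls of Cldn1 (−1.88 ± 0.26, adjusted p = 0.000358), Apol7c (−1.76 ± 0.24, adjusted p = 0.000324), Synpo (−1.84 ± 0.27, adjusted p = 0.000582), Serpinb9 (−0.97 ± 0.16, adjusted p = 0.00155), Tmem176b (−1.41 ± 0.27, adjusted p = 0.00455), Slco5a1 (−2.48 ± 0.48, adjusted p = 0.00487), Marcks (−0.53 ± 0.11, adjusted p = 0.00607), Tmcc3 (−2.24 ± 0.45, adjusted p = 0.00636), Ankrd33b (−1.66 ± 0.36, adjusted p = 0.0103) and Asprv1 (−1.69 ± 0.37, adjusted p = 0.0109) held in every alternative run. Those of Fscn1 (−1.44), Marcksl1 (−0.96), Ccng2 (−0.90), Mreg (−1.52), Nudt17 (−1.58), Lad1 (−1.12), Anxa3 (−1.09) and Il12b (−1.52) were lost without Xbp1 KO replicate 1, at adjusted p of 0.0544 to 0.137, which left 11. Tmem176a (−1.36) was lost without Xbp1-Ire1 KO replicate 1, with Anxa3, Fscn1, Il12b, Lad1 and Nudt17, at adjusted p of 0.0608 to 0.173. Anxa3 and Il12b were lost in each of the 6 fits that left out 1 library, Lad1 in 5 of them, Nudt17 also without Xbp1 KO replicate 2 and Xbp1-Ire1 KO replicate 2, and Fscn1 also without the latter, at adjusted p of 0.0516 to 0.173 over these fits. Il12b was also lost with DESeq2 (adjusted p = 0.0600).

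**Figure D3:**
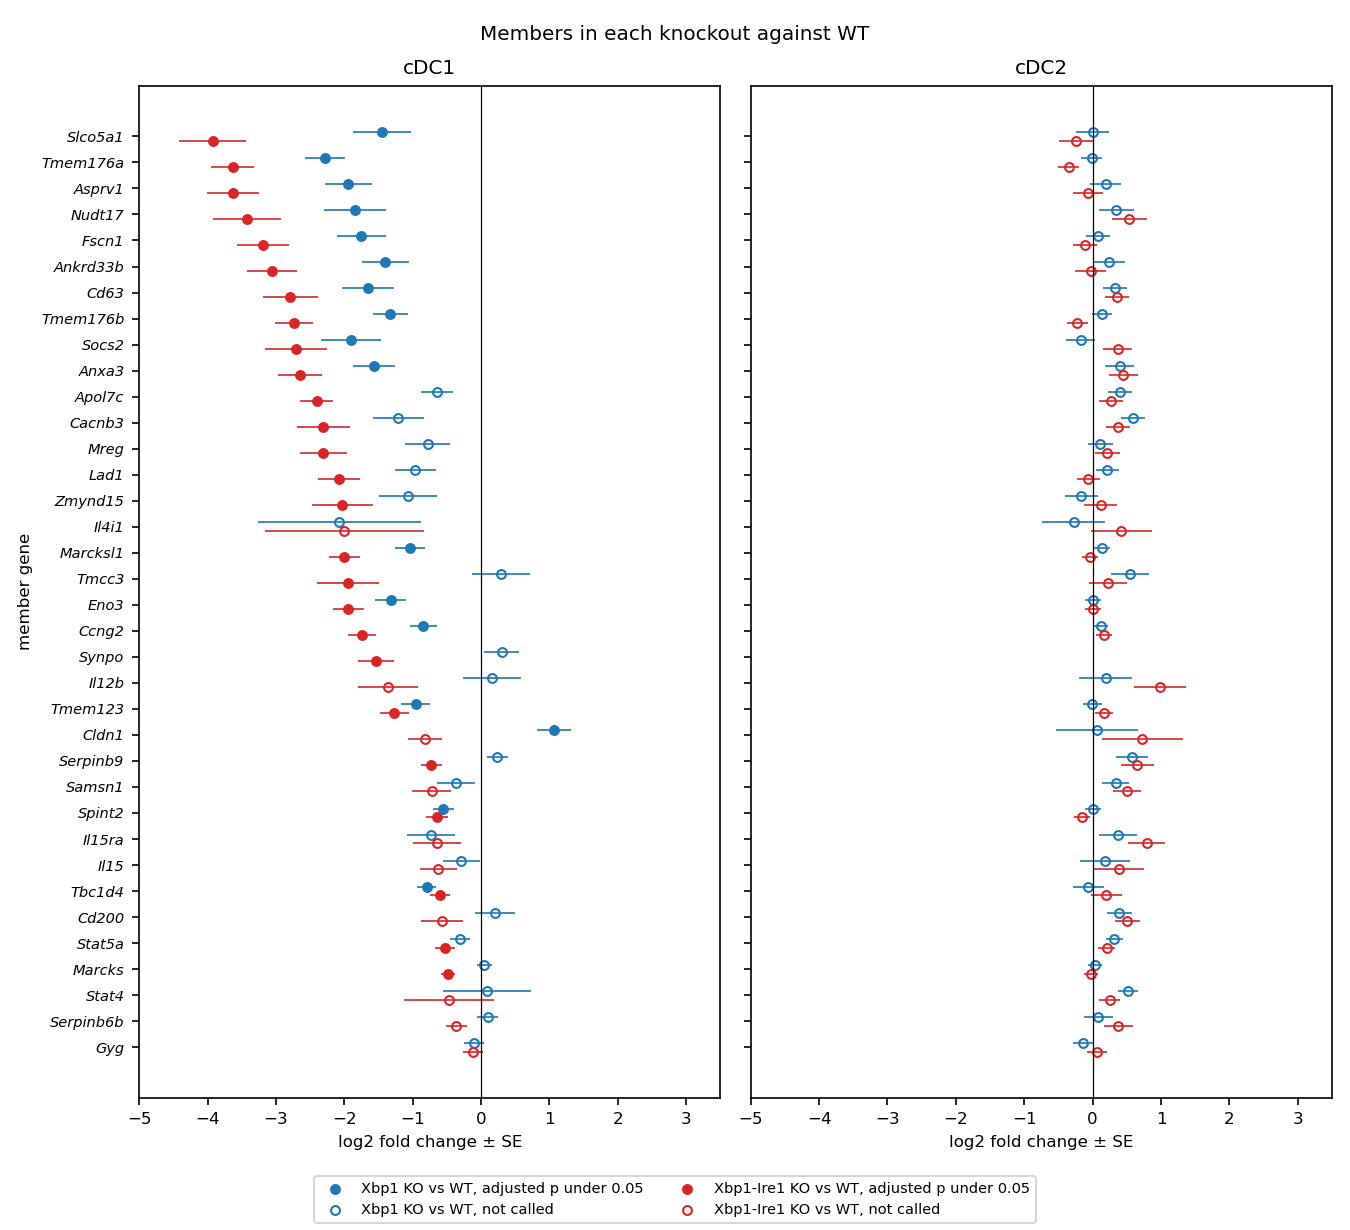
The x axis is the log2 fold change ± SE of each member in Xbp1 KO (blue) and Xbp1-Ire1 KO (red) against WT, in cDC1 (left) and cDC2 (right), ordered by the cDC1 double knockout; filled points passed an adjusted p of 0.05. In cDC1 26 red and 17 blue points are filled and Cldn1 is the filled point above 0, and in cDC2 no point is filled; Synpo was not tested in cDC2.

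In cDC2 the same genes were not called in either knockout. Of 35 members tested (Synpo was too low to test), 0 were called by edgeR in Xbp1 KO against WT, in Xbp1-Ire1 KO against WT and between the knockouts, where 0.103%, 0.0258% and 0.0343% of 11646 genes were called. DESeq2 also called 0 members in each. At an unadjusted p under 0.05 there were 6, 6 and 2 of the 35 members, against 9.68%, 7.53% and 8.24% of all genes. The median log2 fold changes of the members were 0.137, 0.216 and 0.0489, on the positive side, against −0.0242, −0.00178 and 0.00145 for all genes.

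Fscn1 in cDC2 stood at 303, 335, 256 and 247 CPM in WT, 298, 334 and 271 in Xbp1 KO and 325, 276 and 190.4 in Xbp1-Ire1 KO, with overlapping groups. Tmem176a was at 524, 618, 441 and 404 CPM in WT, 476, 534 and 465 in Xbp1 KO and 445, 387 and 339 in Xbp1-Ire1 KO. Apol7c was at 186, 133, 158 and 152 CPM in WT, 192, 237 and 193 in Xbp1 KO and 206, 231 and 130.3 in Xbp1-Ire1 KO. The double knockout overlapped WT for these genes, and the Xbp1 KO libraries of Apol7c lay above WT. Stat4 lay at 48.8, 62.02, 70.6 and 63.2 CPM in WT and 91.2, 80.5 and 91.6 in Xbp1 KO, without overlap, and its difference did not pass (0.52 ± 0.15 (SE), adjusted p = 0.438). Cacnb3, at 20.7, 21.4, 22.8 and 28.4 CPM in WT and 35.2, 40.2 and 30.1 in Xbp1 KO, likewise did not overlap and did not pass (0.59 ± 0.18, adjusted p = 0.461).

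The name of the WT libraries bore on cDC2. With only the fl-fl WT libraries, Stat4 (0.66), Samsn1 (0.73) and Serpinb9 (1.01) were called higher in Xbp1 KO on the log2 scale. These were 3 of 35 members tested. Over all 11915 genes tested in that setting, 414 were called higher and 326 lower. In Xbp1-Ire1 KO, Il12b (1.81), Samsn1 (0.90) and Serpinb9 (1.09) were then called higher and Tmem176a (−0.55) lower. There 281 of all 11915 genes were called higher and 204 lower, against 3 and 1 of the 35 members tested. Calls were thus not confined to the members. With only the WT-named libraries 0 members were called in either comparison, where 6 (Xbp1 KO) and 3 (Xbp1-Ire1 KO) of 11812 genes were. In cDC2 WT, Serpinb9 was at 49.5, 36.5, 78.1 and 68.2 CPM, Il12b at 14.4, 7.01, 23.2 and 31.1 and Samsn1 at 129.5, 94.6, 183 and 183, with the first 2 values of each from the fl-fl libraries. For these 3 genes the fl-fl libraries were the lower ones. Library name and any other property that goes with it cannot be told apart.

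Whether the knockout effects differed between the cell types was tested with interaction terms over the 19 libraries. The effect of Xbp1-Ire1 KO was lower in cDC1 than in cDC2 for 22 of 36 members and higher for 0, against 1.48% and 0.755% of 12185 genes. Tmem176a (−3.31), Apol7c (−2.69), Fscn1 (−3.10), Asprv1 (−3.58) and Nudt17 (−3.98) were among 18 whose call held in every alternative run. The other 4, Serpinb9, Stat5a, Tmcc3 and Zmynd15, were lost without cDC1 WT replicate 1, at adjusted p of 0.0524 to 0.105, and Tmcc3 was lost without any 1 of the libraries compared except cDC1 WT replicate 2. Leaving out any other of the libraries compared, again except cDC1 WT replicate 2, lost 1 to 4 of these 4.

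For Xbp1 KO the effect was lower in cDC1 for 12 members and higher for 0, against 1.84% and 0.328% of all genes. Anxa3 (−1.96 ± 0.38, adjusted p = 0.00440), Eno3 (−1.33 ± 0.25, adjusted p = 0.00340), Tmem176a (−2.27 ± 0.33, adjusted p = 0.000206) and Tmem176b (−1.47 ± 0.30, adjusted p = 0.00825) held in every alternative, and the count fell to 4 with only the fl-fl WT libraries and to 5 without cDC1 WT replicate 1 or cDC1 Xbp1 KO replicate 2. For the double knockout against Xbp1 KO the effect was lower in cDC1 for 3 members and higher for 0, against 0.320% and 1.82% of all genes. These were Apol7c (−1.63 ± 0.33, adjusted p = 0.00779), Slco5a1 (−2.24 ± 0.57, adjusted p = 0.0403) and Ccng2 (−0.96 ± 0.25, adjusted p = 0.0423), of which Apol7c held in every alternative. Leaving out any 1 of the 12 knockout libraries lost 1 or both of the others, at adjusted p of 0.0515 to 0.148.

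The members also differed between WT cDC1 and WT cDC2. Of 36, 17 were higher in cDC1 and 8 lower, where 20.0% and 20.7% of 12185 genes were. The share of members that was lower in cDC1 was near that of all genes. Serpinb6b stood at 181 ± 21.1 CPM (mean ± SD) in WT cDC1 and 13.5 ± 2.19 in WT cDC2 (3.74 ± 0.18 (SE), adjusted p = 1.66e-12), Serpinb9 at 460.4 ± 85.9 and 56.1 ± 18.4 CPM (3.04 ± 0.23, adjusted p = 1.3e-09), and Apol7c at 969 ± 128 and 152 ± 20.6 CPM (2.68 ± 0.22, adjusted p = 6.31e-09). The cytokine genes Il15 (1.99), Il15ra (1.54) and Il12b (2.72) were higher in cDC1 on the log2 scale. Synpo was at 15.7 to 24.8 CPM in cDC1 WT and at 0 to 1.34 CPM in cDC2 WT. CPM values in the comparison of the cell types are scaled over all 19 libraries.

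Higher in cDC2 were Tmem176b, at 774 ± 138 against 61.7 ± 23.5 CPM in cDC1 (−3.65 ± 0.24, adjusted p = 1.63e-10), Tmem176a (−2.92 ± 0.24, adjusted p = 6.06e-09) and Stat4 (−4.53 ± 0.38, adjusted p = 7.21e-09), along with Tbc1d4, Mreg, Slco5a1, Anxa3 and Eno3. Fscn1 (0.36 ± 0.29, adjusted p = 0.357) was among the 11 members that were not called. Samsn1, another of them, was called lower in cDC1 with the WT libraries alone and paired by replicate number (−0.59, adjusted p = 0.00745). The labels do not give this pairing, and the numbers inside the library names differ for replicate 3. Cd63 was lost without cDC1 WT replicate 1 or 3 or cDC2 WT replicate 3, Gyg without cDC1 WT replicate 1, Anxa3 and Slco5a1 without cDC1 WT replicate 2, and Slco5a1 without cDC2 WT replicate 1, at adjusted p of 0.0501 to 0.171. Per kilobase of exon, Tmem123 (459.6 ± 85.7), Marcks (374.7 ± 25.4) and Tmem176b (339 ± 63.1 CPM per kilobase, SD, n = 4) had the highest mean levels in cDC2 WT. In cDC1 WT Apol7c was followed by Tmem123 (361 ± 109) and Marcks (328.5 ± 23.8 CPM per kilobase, SD, n = 3). Neighbours in each of these orders differed by less than the larger of their SDs.

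Single libraries carried much of the spread within a group. WT replicate 2 was the lowest cDC1 WT library for 33 of 36 members, and Xbp1-Ire1 KO replicate 2 the lowest of its group for 33. With CPM scaled over all 19 libraries, the mean log2(CPM + 0.5) over the 35 members tested in both cell types was 6.22, 5.51 and 6.40 in cDC1 WT, 5.52, 5.17 and 5.25 in Xbp1 KO and 4.40, 3.97 and 4.73 in Xbp1-Ire1 KO. By that mean WT replicate 2 and Xbp1 KO replicate 1 stood at the same level, and all Xbp1-Ire1 KO libraries lay below every other cDC1 library. In cDC2 the mean was from 5.61 to 5.82 over the WT libraries, from 5.82 to 6.07 over Xbp1 KO and from 5.75 to 6.16 over Xbp1-Ire1 KO, with overlap.

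Ccr7, the receptor that guides maturing dendritic cells and not itself a member, stood at 843, 376 and 1329.9 CPM in cDC1 WT, 644, 445 and 395 in Xbp1 KO and 117, 70.9 and 182 in Xbp1-Ire1 KO. It fell in the double knockout (−2.79 ± 0.41 (SE), adjusted p = 0.000939) but did not pass in Xbp1 KO (−0.78 ± 0.38, adjusted p = 0.200). In cDC2 Ccr7 was at 459, 346, 1668 and 1463 CPM in WT, 2079, 2119.99 and 1629 in Xbp1 KO and 1539.9, 1889.7 and 1097 in Xbp1-Ire1 KO. There the fl-fl WT libraries were the low ones.

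**Figure D4:**
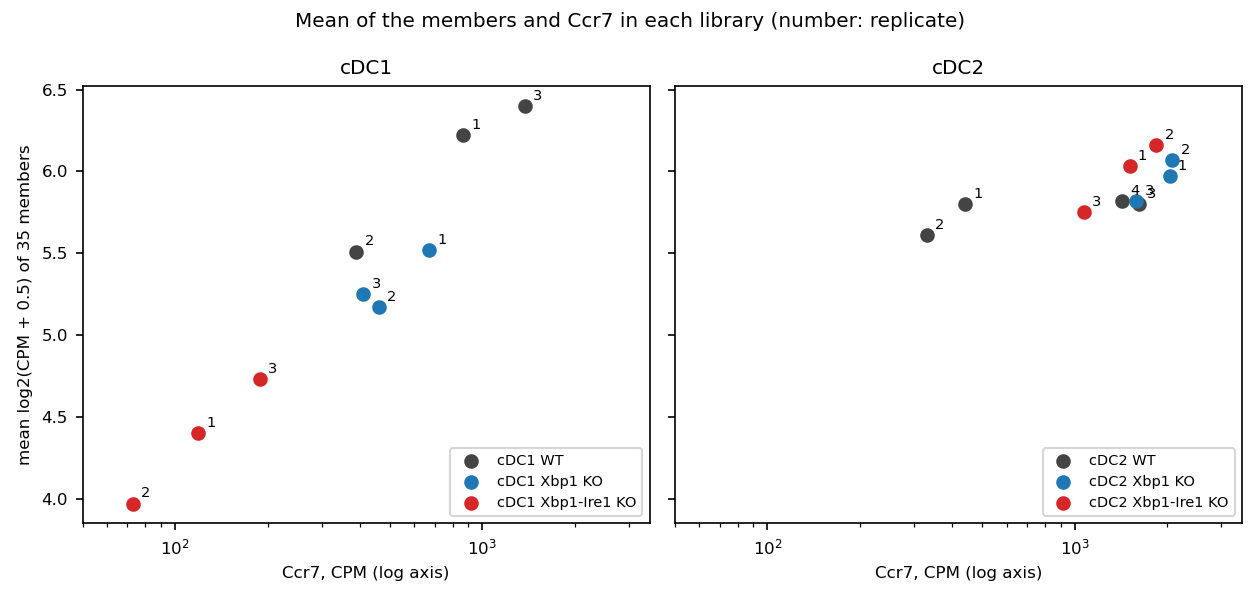
The x axis is Ccr7 in CPM, scaled over all 19 libraries, on a log axis and the y axis the mean log2(CPM + 0.5) of 35 members, with 1 point per library marked by its replicate number, cDC1 left and cDC2 right. The cDC1 libraries run from Xbp1-Ire1 KO replicate 2 (3.97) to WT replicate 3 (6.40), and the cDC2 libraries all lie between 5.61 and 6.16.

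Genes of the surrounding programme that are not members were counted from lists chosen with earlier results known. Of 23 tested genes of migration and NF-kappaB signalling, 16 fell and 0 rose in cDC1 Xbp1-Ire1 KO (median −0.907), where 4.71% of all genes fell and 3.04% rose, among them Relb (−1.53 ± 0.15, adjusted p = 5e-05), a subunit of NF-kappaB. In Xbp1 KO, where 6.91% of all genes fell and 4.28% rose, 5 fell and 0 rose (median −0.258): Relb, Nfkbie, Cxcl16, Il21r and the chemokine gene Ccl22 (−3.70 ± 0.37, adjusted p = 2.4e-05). Of 11 tested costimulation genes, 4 (Tnfrsf4, Fas, Cd274 and Icosl) fell and 1 (Tnfsf9) rose in the double knockout, and 0 fell and 1, Cd80 (0.83 ± 0.25, adjusted p = 0.0470), rose in Xbp1 KO. Of 13 partners of interleukin 15 and JAK signalling, Il2rg, the common cytokine receptor chain, fell in Xbp1 KO (−1.10 ± 0.16, adjusted p = 0.000628) and, with Stat3, in the double knockout (−1.28 ± 0.16, adjusted p = 0.000294). In cDC2 0 genes of these lists were called by edgeR in either knockout against WT, where 0.103% (Xbp1 KO) and 0.0258% (Xbp1-Ire1 KO) of all genes were.

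Transcripts of other cells also differed between the cDC1 libraries. The 7 neutrophil transcripts found in the tables summed to 2.06, 8.23 and 6.19 CPM in cDC1 WT, 1.52, 13.2 and 2.61 in Xbp1 KO and 21.7, 80.0 and 23.3 in Xbp1-Ire1 KO, where 0 or 1 of them was at 0. The 8 transcripts of plasmacytoid dendritic cells summed to 104, 102 and 117 CPM in WT, 99.5, 129 and 77.4 in Xbp1 KO and 201, 166 and 152 in Xbp1-Ire1 KO. Of the Xbp1-Ire1 KO sums, Cox6a2 alone made up 112, 74.2 and 66.2 CPM. The defining marker Siglech was at 0.177, 1.70 and 0.129 CPM in Xbp1-Ire1 KO against 0.581, 0.378 and 3.53 CPM in WT. Xbp1-Ire1 KO replicate 2, the library with the most neutrophil transcripts, was also the lowest for most members, and without it 22 members were called lower against WT. That library and Xbp1 KO replicate 2 held the most red pulp macrophage transcripts, which summed to 232, 233 and 362 CPM in WT, 421, 898 and 171 in Xbp1 KO and 189, 733 and 196 in Xbp1-Ire1 KO, with none of the 8 at 0. Without Xbp1 KO replicate 2, 6 members were called in Xbp1 KO against WT and 15 between the knockouts, and without Xbp1-Ire1 KO replicate 2, 14 between the knockouts. The part of these transcripts in the results was not tested beyond that. Of 20 immediate early genes, 8 rose and 0 fell in Xbp1 KO, where 4.28% of all genes rose and 6.91% fell. In Xbp1-Ire1 KO 1 of them (Klf4) rose and 5 (Ier3, Dusp1, Dusp2, Zfp36 and Klf2) fell, where 3.04% of all genes rose and 4.71% fell. The part of these genes was not tested. Of 15 tested genes of resting dendritic cells, 0 fell and 2, Itgb2 and Lyz2, rose in the double knockout, against the same shares, with a median log2 fold change of 0.216.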

How the data were processed

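RNA-seq of 19 libraries was analysed from the gene counts the authors deposited, 1 table per cell type, which are whole numbers with no normalization. Tools named in the submitters' processing notes are FastQC 0.11.4, Trimmomatic 0.35, TopHat2 2.1.0, SAMtools 0.1.19 and limma 3.42.2, with build mm10; not given in the sources used here are the counting program, annotation and strand setting. The authors also deposited log2 expression values of 11059 genes in cDC1 and 11441 in cDC2, used only in an alternative test with limma. The members and the context lists were chosen with earlier results of these data known.

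Counts were fitted with edgeR 4.0.16 (quasi-likelihood F test, TMM scaling, low-count filter of filterByExpr at its settings of 10 per library and 15 in total) in R 4.3.3, in 1 fit per cell type and 1 fit of all 19 libraries for the cell type difference and the interactions. Between the cell types of 1 genotype, deviations of same-numbered libraries correlated at −0.0612 to 0.258 (4 of 9 pairs over 0.1). Those of the 3 WT pairs correlated at 0.132, 0.258 and 0.202, and the WT libraries were also compared as pairs. Differently numbered WT libraries correlated at 0.162 and 0.0488 where both were fl-fl, and at 0.271 where both were WT-named. Pairing by number thus cannot be told apart from the library name, and the labels do not say that paired libraries share a mouse. The numbers inside the library names differ between the 2 libraries of WT replicate 3. Libraries of the 2 cell types alike in name and in that number correlated at −0.218 to 0.258 (2 of 6 pairs over 0.1). P-values were adjusted over all genes tested by the Benjamini-Hochberg method and called at 0.05. CPM were computed with the TMM library sizes, except sums over marker lists and the values of Xcr1, which are unscaled. The SE of a log2 fold change was taken as its size divided by the square root of F. Depth was 10606864 to 16209469 counts per library; counting error alone is small except for genes with few counts, such as Il4i1.

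As alternatives, DESeq2 1.42.0 was run, and edgeR with DESeq2 scaling, no filter, a stricter filter (minimum count 30), a replicate block, WT libraries of 1 name only, the compared groups alone, limma 3.58.1 on the deposited log2 values, and leaving out each library. The edgeR procedure of the reported fits was tested on simulated data, for Xbp1 KO against WT in each cell type and for the WT cell types. The interactions and the alternatives were not tested in that way. All 36 members could be named, with Xbp1, Ern1, Ccr7 and, from each context list, up to 4 genes with the smallest adjusted p in a comparison and the most abundant gene of each list of other cells; Xcr1, Siglech and genes listed where a count is 5 or fewer were named after their values were seen. Promoters are from RefSeq, and figures were drawn with matplotlib 3.10.9.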

Additional observations from a re-analysis of the deposited data

Results flagged for a closer look

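The effect of a knockout differed between cDC1 and cDC2 by the interaction test for 37 values, given here as the log2 fold change in cDC1 minus that in cDC2. For Xbp1-Ire1 KO against WT the cytoskeletal, signalling and membrane genes were Fscn1 (−3.10), Marcksl1 (−1.98), Socs2 (−3.09), Stat5a (−0.76), Tmem123 (−1.46), Cd63 (−3.17) and Lad1 (−2.04). The channel, transporter, protease and inhibitor genes were Tmem176a (−3.31), Tmem176b (−2.53), Cacnb3 (−2.70), Slco5a1 (−3.70), Asprv1 (−3.58) and Serpinb9 (−1.40). The genes of metabolism, traffic and the last group were Eno3 (−1.96), Nudt17 (−3.98), Mreg (−2.54), Anxa3 (−3.12), Apol7c (−2.69), Ankrd33b (−3.04), Zmynd15 (−2.16), Tmcc3 (−2.20) and Ccng2 (−1.93). For Xbp1 KO against WT they were Fscn1 (−1.84), Marcksl1 (−1.19), Cd63 (−1.99), Tmem176a (−2.27), Tmem176b (−1.47), Cacnb3 (−1.81), Asprv1 (−2.14), Eno3 (−1.33), Nudt17 (−2.20), Anxa3 (−1.96), Ankrd33b (−1.65) and Ccng2 (−0.97). For Xbp1-Ire1 KO against Xbp1 KO they were Slco5a1 (−2.24), Apol7c (−1.63) and Ccng2 (−0.96). Each of these effects was lower in cDC1.

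In cDC2 WT, the only group of 4 libraries, 1 library stood apart from the other 3 for 4 of the 36 members by Dixon's test, where chance gives about 1 in 20. Stat5a was at 60.4 CPM in replicate 4, below 67.2 to 67.9 in the others. Cldn1 was at 5.24 CPM in replicate 2, above 2.16 to 2.47. Asprv1 was at 26.4 CPM in replicate 1, above 17.1 to 17.4. Serpinb6b was at 10.8 CPM in replicate 2, below 14.9 to 15.5.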

How the results depend on the processing

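None of the 1998 alternative values of single member calls changed direction, 1754 kept their call and 244 lost it. Of 160 alternative counts of called members, 139 were within 1.5 times the reported count. Leaving out 1 library gave 6 to 17 members for Xbp1 KO against WT in cDC1 (17 reported), 21 to 27 for Xbp1-Ire1 KO against WT (26) and 11 to 18 between the knockouts (19). It gave 24 to 26 for the WT cell types (25), and 5 to 16, 18 to 24 and 1 to 7 for the 3 interactions (12, 22 and 3). With only fl-fl WT libraries, 3 and 4 members were called in cDC2 Xbp1 KO and Xbp1-Ire1 KO against WT (0 reported), and 4 in the Xbp1 KO interaction. The interaction of the double knockout against Xbp1 KO had 10 members with DESeq2 and 6 with no filter. The cause of these shifts was not tested.

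Counts over all genes moved more. Xbp1 KO against WT in cDC1 had 1270 called genes, 2926 with fl-fl WT libraries only (in cDC1 the same as without WT replicate 3), 345 with the WT-named library only and 828 with the groups alone. Xbp1-Ire1 KO against WT had 880, and 1356 with DESeq2, 1966, 580 and 575 in those settings. Between the knockouts 1437 became 2239 with the groups alone. In cDC2 12 became 47 with DESeq2, 21 with no filter, 740 with fl-fl and 6 with WT-named libraries, 3 became 5 with DESeq2 and 485 with fl-fl libraries, and 4 became 11 with DESeq2. The WT cell types had 4971, and 3156 with WT-named libraries. The interactions had 264, 272 and 261, and 432, 462 and 462 with DESeq2, the first 173 with WT-named libraries. Leaving out 1 library gave 471 to 2926, 430 to 1966 and 648 to 1297 genes in the cDC1 comparisons, 9 to 13, 3 to 4 and 2 to 8 in cDC2, 4158 to 5087 for the WT cell types and 182 to 418, 170 to 298 and 194 to 261 for the interactions.

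Within a cell type the replicate numbers were not taken as pairs: the deviations of same-numbered libraries correlated at −0.152 to 0.234, with 6 of 18 pairs over 0.1, and those of other pairs at −0.217 to 0.149, with 5 of 42 over 0.1. In the WT groups alone with a replicate block, chosen after seeing the data, 26 members were called between the cell types, the 25 reported and Samsn1. With a replicate block the counts of called members were 20, 26 and 23 in the cDC1 comparisons, 0 in each cDC2 comparison, 25 for the WT cell types and 12, 21 and 4 for the interactions. Depth limits Il4i1 in cDC1 and Synpo in cDC2.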
